A study of Mus musculus with 56 samples.

Results

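The comparison described here is between cortical thymic epithelial cells (cTECs) taken in late gestation and cTECs taken from non-pregnant controls. Its members are the 6 samples labelled cTEC with the time point D-2 (3 samples, 2 days before delivery) or NPC (3 samples, non-pregnant controls), out of 28 cTEC samples and 56 samples in all. The mice were B6.SJL females (full name B.6SJL-Ptprca Pep3b/BoyJ-CD45.1), and those bred were mated with BALB/cJ males. For the time points after delivery, pups were removed at birth. Thymi were digested with enzymes, EpCAM+ cells were enriched on beads, and CD45- UEA1- cells were sorted as cTECs and CD45- UEA1+ cells as medullary TECs (mTECs). Each sample came from 1 mouse, and poly-A RNA was sequenced with a strand-specific kit. The controls were age-matched, and the ages themselves are not given in the sources used here.

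cTECs line the thymic cortex and carry early thymocytes through commitment and positive selection. They attract progenitors with chemokines, instruct them through Notch ligands, and present peptides made by their own proteases and proteasome subunits. Many of these products are under the control of the transcription factor FOXN1. The thymus shrinks during pregnancy, and progesterone receptors in the thymic stroma are known to be needed for this. The question addressed here was which genes differ between the cTECs of pregnant and non-pregnant mice over the whole transcriptome.

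Of the 50600 genes in the files, 15845 were tested, those whose FPKM averaged 0.5 or more in the 28 cTEC samples. FPKM is a level scaled by the length of the transcript and by the fragments counted in the sample. Total expected counts of the 6 samples lay between 6718253 and 12974714. Levels of 7 cTEC-defining genes were looked at (*Tbata*, *Prss16*, *Ackr4*, *Psmb11*, *Foxn1*, *Ly75* and *Enpep*), and each was at 15.9 FPKM or more in every one of the 6 samples. In the NPC and D-2 mTEC samples *Prss16* (32.3 to 173.9 FPKM) and *Tbata* (288 to 790 FPKM) also passed that level, while *Ly75* was at 6.17 to 19.7 FPKM. That level alone therefore does not set the cell types apart. Among the 6 cTEC libraries, 2 controls stood apart. In NPC replicate 3 the immediate-early and heat-shock genes summed to 18960 FPKM, against 8194 and 8535 in the other NPC samples and 11310 to 11930 at D-2. Its mitochondrial genes took 1.184% of counts, against 2.664% to 3.161% in the other 5 samples. NPC replicate 2 had the lowest correlations of log2 CPM over the genes tested (0.817 to 0.853 with the other 5 samples, against 0.847 to 0.912 among those 5). It also had the fewest genes with a count, 14618 against 15109 to 19753, although its total count was the highest. For some results that depended on either library, values without it are given too. Without NPC replicate 2, 0 genes passed an adjusted p of 0.05 in limma-voom. That includes the genes described below as called without NPC replicate 3.

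Promoters are shown for 3 of the genes the results turn on, as 250 bases upstream of the start in RefSeq on GRCm38.p6. *Ly75* and *Pithd1* are the called genes for which a promoter was given, and *Serpina3n* had the smallest p among the genes that were higher at D-2. Capitals mark GACGC or its reverse complement, the core bound by FOXN1, in *Ly75* and *Pithd1*, and AGAACA or its reverse complement, a motif bound by steroid receptors, in *Serpina3n*. The windows are chr2:60383274-60383523 (minus strand) for *Ly75*, chr4:135987245-135987494 (minus strand) for *Pithd1* and chr12:104406458-104406707 (plus strand) for *Serpina3n*.
Ly75: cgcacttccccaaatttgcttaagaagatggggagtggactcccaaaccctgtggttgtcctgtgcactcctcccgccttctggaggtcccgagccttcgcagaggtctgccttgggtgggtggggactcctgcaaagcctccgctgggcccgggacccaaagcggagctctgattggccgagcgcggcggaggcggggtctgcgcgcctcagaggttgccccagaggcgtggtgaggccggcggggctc
Pithd1: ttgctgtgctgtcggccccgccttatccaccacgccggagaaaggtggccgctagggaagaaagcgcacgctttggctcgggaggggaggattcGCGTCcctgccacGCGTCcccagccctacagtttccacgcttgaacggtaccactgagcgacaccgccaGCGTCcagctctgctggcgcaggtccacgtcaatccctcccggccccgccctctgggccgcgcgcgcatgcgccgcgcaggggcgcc
Serpina3n: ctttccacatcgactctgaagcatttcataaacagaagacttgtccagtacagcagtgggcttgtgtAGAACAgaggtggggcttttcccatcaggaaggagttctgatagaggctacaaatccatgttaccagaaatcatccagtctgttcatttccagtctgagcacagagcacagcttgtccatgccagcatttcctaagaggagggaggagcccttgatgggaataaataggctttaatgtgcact
The *Pithd1* window held 3 matches to the FOXN1 core, first bases 156, 143 and 87 before the start, and the *Ly75* window held 0. The *Serpina3n* window held 1 steroid receptor motif, first base 183 bases before the start.

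At D-2, 4 genes had changed in cTECs and all 4 were lower. They were *Prss16*, a thymus-specific serine protease, *Ly75*, the endocytic receptor DEC-205, *Pithd1*, which encodes a PITH domain protein, and *Fabp5*, a fatty acid-binding protein. The falls ranged from 1.61 to 2.78 on the log2 scale in limma-voom (3 against 3 mice, Benjamini-Hochberg adjusted p of at most 0.05). These 4 genes were 0.0252% of all genes tested, and the share called higher was 0%. At an unadjusted p under 0.05 there were 852 higher and 712 lower genes, 9.87% of those tested.

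*Prss16* (chr13:22002173-22009742) was at 1436, 2019.7 and 1194 FPKM in the 3 NPC samples and at 278, 169.7 and 214 FPKM at D-2. Its highest D-2 sample was far below its lowest NPC sample, and the log2 difference was -2.78 (SE 0.28, adjusted p = 0.0291, limma-voom). *Fabp5* (chr3:10012548-10016607) was at 676, 1443 and 933 FPKM in NPC and at 217, 212 and 153 FPKM at D-2. The NPC samples spread widely but did not meet the D-2 samples, with a log2 difference of -2.31 (SE 0.27, adjusted p = 0.0482, limma-voom). *Pithd1* (chr4:135975460-135987264) was at 94.9, 142 and 85.2 FPKM in NPC and at 35.1, 26.2 and 18.8 FPKM at D-2. Again no sample overlapped, and the log2 difference was -1.87 (SE 0.20, adjusted p = 0.0291, limma-voom). *Ly75* (chr2:60292103-60383303) was at 81.6, 99.6 and 93.6 FPKM in NPC and at 33.4, 24.7 and 30.1 FPKM at D-2. It was the steadiest of the 4 within each group, with a log2 difference of -1.61 (SE 0.16, adjusted p = 0.0291, limma-voom). The coordinates are those of GENCODE M21 on GRCm38.

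The number of calls depended on the library and the method. Without NPC replicate 3, limma-voom called 68 genes (19 higher and 49 lower), among them the same 4. When any other 1 of the 6 samples was left out, it called 0 or 1 genes and none of the 4. edgeR's quasi-likelihood test called 13 genes, and DESeq2 called 226. A limma-voom fit over all 28 cTEC samples called 56 genes, with 20 higher and 36 lower, and 33 of these were also among the 68. In the bulk RNA measured here, fewer cells of a type and less RNA per cell cannot be told apart.

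**Figure D1:**
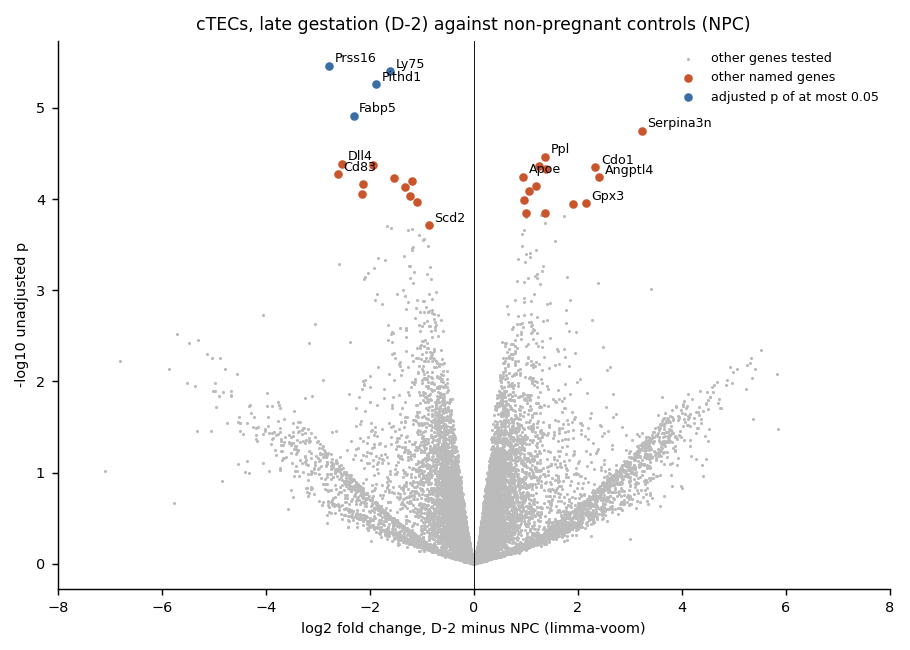
Volcano plot of the 15845 genes tested in cTECs, with the log2 fold change of D-2 over NPC on the x axis and the unadjusted p on a -log10 scale on the y axis. The 4 called genes (blue) lie on the left, and the other named genes (orange) lie below them on both sides.

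Beside the called genes, 25 further genes are named as those with the smallest p in each direction, at a mean of at least 5 FPKM in the higher group and with no overlap between groups. None of them passed an adjusted p of 0.05. Their adjusted p was between 0.0564 and 0.0908 (limma-voom). Without NPC replicate 3, 22 of the 25 did pass (adjusted p = 0.0142 to 0.0457, limma-voom), all but *Angptl4*, *Gpx3* and *Ndrg2*, and without NPC replicate 2 none did. Over all 15845 genes tested, 68 passed without NPC replicate 3. The 25 were chosen for a small p in these same samples, so their count is not separate evidence for them. At an adjusted p of at most 0.1, a threshold chosen after the data were seen, 20 genes were higher and 20 lower, each 0.126% of those tested.

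The gene with the smallest p among those above NPC was *Serpina3n*, a serine protease inhibitor of the acute-phase response. It was at 40.7, 11.2 and 24.4 FPKM in NPC and at 178, 174.7 and 239 FPKM at D-2. The lowest D-2 sample was well above the highest NPC sample, and the log2 difference was 3.23 (SE 0.39, adjusted p = 0.0564, limma-voom). *Angptl4*, a secreted inhibitor of lipoprotein lipase, was at 6.19, 15.5 and 10.7 FPKM in NPC and at 47.8, 54.9 and 56.7 FPKM at D-2. *Cdo1*, cysteine dioxygenase, was at 24.6, 11.6 and 24.5 FPKM in NPC and at 101.3, 70.1 and 100.4 FPKM at D-2. *Gpx3*, a secreted glutathione peroxidase, was at 269, 133 and 249 FPKM in NPC and at 652, 809 and 1350.0 FPKM at D-2. In all 3 genes the D-2 samples lay above every NPC sample, and *Gpx3* had the widest spread at D-2.

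*Ppl*, *Cldn1*, *Zfp750* and *Prelp* also lay above NPC. *Ppl*, which encodes the desmosomal and cornified envelope protein periplakin, was at 9.07 ± 1.44 FPKM in NPC and 22.3 ± 0.32 at D-2 (mean ± SD, n = 3 each). *Cldn1*, a tight junction claudin, was at 27.8 ± 4.62 and 63.5 ± 3.77 FPKM. *Zfp750*, a transcription factor of epidermal differentiation, was at 7.08 ± 2.64 and 23.0 ± 1.49 FPKM. *Prelp*, a leucine-rich proteoglycan of basement membranes, was at 165.5 ± 30.8 and 417 ± 46.4 FPKM. The D-2 samples of each of these 4 genes varied little beside the distance to the controls.

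A further 6 genes lay above NPC. *Apoe*, the lipid carrier apolipoprotein E, was at 1665, 1668 and 1972 FPKM in NPC and at 3285, 3332 and 2963 FPKM at D-2, which makes it the most abundant of the named genes. *Igfbp4*, which binds insulin-like growth factors, was at 204.9 ± 42.6 and 406 ± 24.7 FPKM. *Kcnj15*, an inwardly rectifying potassium channel, was at 88.9 ± 7.39 and 174.5 ± 30.8 FPKM. The other 3 were *Tmem176b* (608 ± 27.6 and 1153 ± 113 FPKM), *Ephx1*, microsomal epoxide hydrolase (125 ± 16.0 and 229 ± 30.8 FPKM), and *Ndrg2* (26.7 ± 6.09 and 64.6 ± 5.78 FPKM).

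Among the genes below NPC that were not called were *Dll4*, *Cd83*, *Tbata* and *Crip3*. *Dll4*, the Notch ligand that commits progenitors to the T lineage, was at 20.4, 25.8 and 19.8 FPKM in NPC and at 5.37, 3.03 and 3.13 FPKM at D-2. *Cd83*, a surface protein that stabilizes MHC class II, was at 102, 142 and 69.1 FPKM in NPC and at 14.3, 12.3 and 24.6 FPKM at D-2. *Tbata*, a gene of the thymic stroma, was at 1794, 2039.8 and 1305 FPKM in NPC and at 601, 249.6 and 339 FPKM at D-2. Both groups of *Tbata* were spread, but the D-2 samples all lay below the controls. *Crip3*, a LIM domain protein of the thymus, was at 366 ± 79.9 FPKM in NPC and 75.6 ± 32.4 at D-2.

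A further 7 genes lay below NPC without being called. *Ache*, acetylcholinesterase, was at 103 ± 33.0 FPKM in NPC and 26.2 ± 7.86 at D-2. *Pds5b*, a cohesin regulator, was at 53.5 ± 10.1 and 16.1 ± 0.70 FPKM. *Dpp6*, an auxiliary subunit of potassium channels, was at 104.9 ± 15.2 and 44.6 ± 4.97 FPKM. *Abat*, which breaks down GABA, was at 36.1 ± 2.65 and 17.4 ± 7.81 FPKM, and its D-2 samples ran from 11.2 to 26.2. *Mmp9*, a gelatinase, was at 53.7 ± 4.12 and 21.1 ± 2.97 FPKM. *Slc36a1*, a lysosomal amino acid transporter, was at 53.8 ± 14.8 and 21.4 ± 4.42 FPKM. *Scd2*, a fatty acid desaturase, was at 70.9 ± 6.16 and 37.8 ± 2.15 FPKM.

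**Figure D2:**
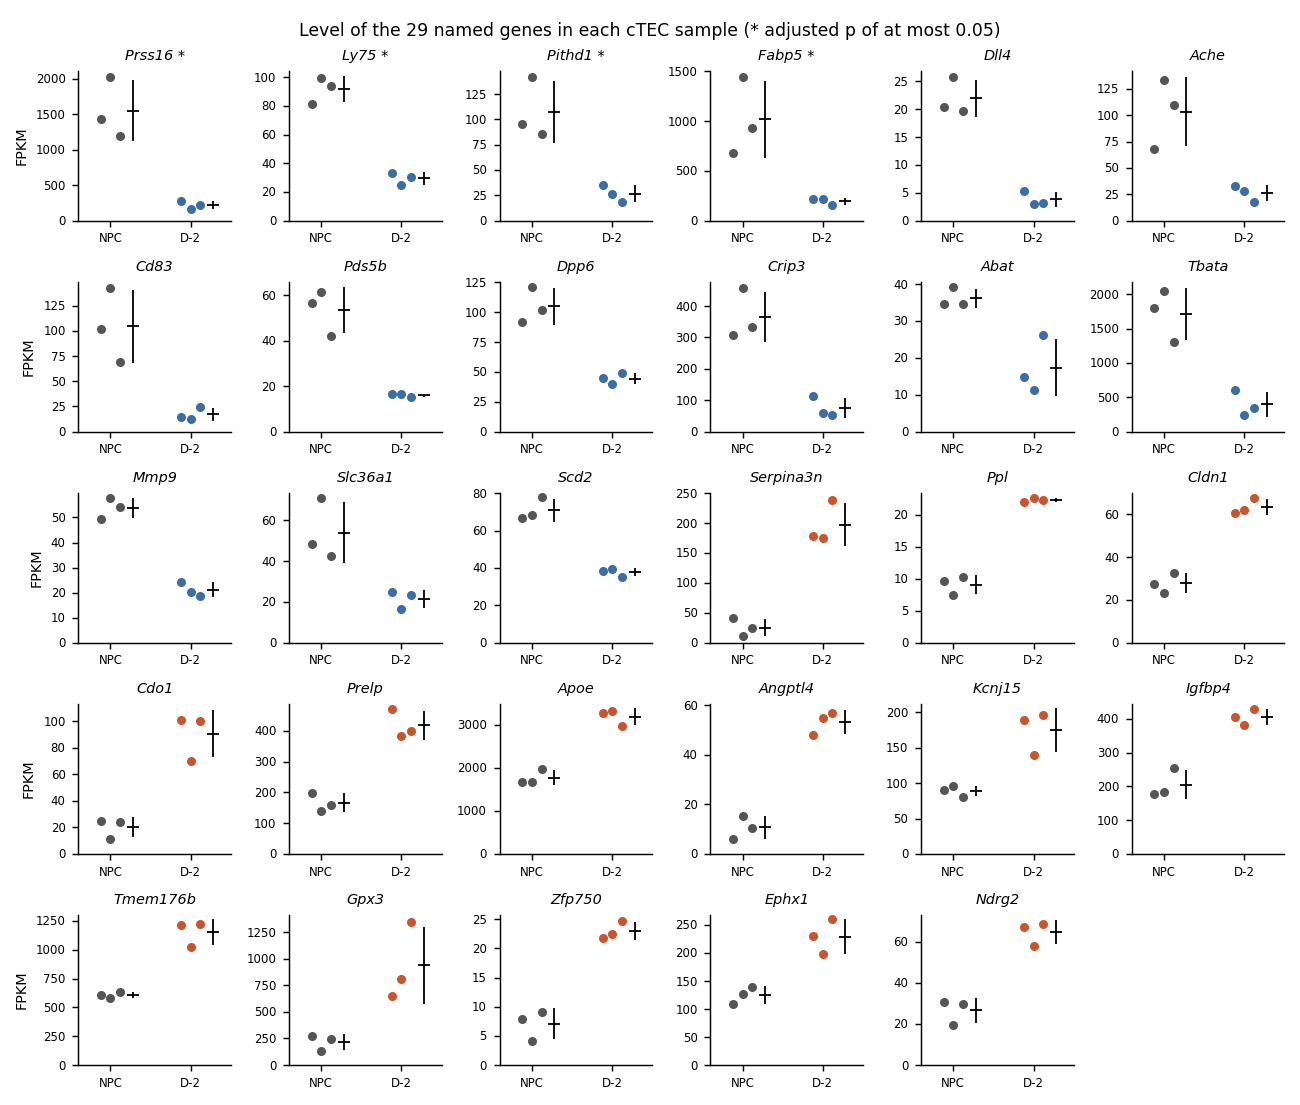
FPKM of the 29 named genes in each of the 6 cTEC samples, with the mean and SD beside the points (NPC in grey, D-2 in blue where lower and orange where higher, n = 3 each). No gene shows an overlap between groups, which the choice of the genes required, and asterisks mark the 4 called genes.

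Gene lists were then counted by how many of their tested members had all D-2 samples above, or all below, every NPC sample. Over all genes tested these shares were 6.54% above and 7.56% below, and the median log2 difference was 0.03. Among the 27 pathway lists, 3 held a called gene, namely *Prss16* among the FOXN1 targets, *Ly75* among the cTEC identity genes and *Fabp5* among the genes of fatty acid synthesis and lipid handling. The members named below did not pass an adjusted p of 0.05 unless stated.

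Of 10 FOXN1 targets, 7 lay below and 1 above, with a median of -1.64. The list was taken from the study's own discussion of its samples, so its count is not independent evidence of a direction. *Psmb11*, the thymoproteasome subunit of cTECs, was at 231, 227 and 73.8 FPKM in NPC and at 36.2, 15.9 and 29.9 FPKM at D-2. *Ccl25*, a chemokine that draws progenitors, was at 1995, 2513 and 882 FPKM in NPC and at 535, 240.4 and 404 FPKM at D-2. NPC replicate 3 was the lowest control for both. Without it *Psmb11* fell by 3.19 on the log2 scale (adjusted p = 0.0142) and *Ccl25* differed by -2.615 (adjusted p = 0.0173, limma-voom). *Foxn1* itself was at 185.6, 220.5 and 67.8 FPKM in NPC and at 108.7, 74.3 and 92.3 FPKM at D-2, so that the groups overlapped through NPC replicate 3 (log2 difference -0.60, adjusted p = 0.641). Without that sample *Foxn1* was called lower (log2 difference -1.18, adjusted p = 0.0385, limma-voom).

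The wider list of cTEC identity genes was split. Of 18 tested, 5 lay below and 1 above, with a median of -0.20. *Krt8*, a simple keratin of cTECs, was at 1837, 2303 and 1195 FPKM in NPC and at 1159, 1009 and 969 FPKM at D-2. It was called lower without NPC replicate 3 (-0.995, adjusted p = 0.0228, limma-voom). The median of the list was -0.05 without that sample. The 7 defining genes summed to 4017, 4904 and 3000 FPKM in NPC and to 1288, 735 and 900 FPKM at D-2 (5 of 7 below, 0 above).

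Antigen presentation did not move as a block. Of 16 genes of MHC class I and peptide loading, 2 lay above and 2 below, with a median of -0.05, and of 13 class II genes 2 lay above and 1 below, with a median of 0.15. *Psmb10*, an immunoproteasome subunit, was at 472, 547 and 266 FPKM in NPC and at 197.5, 175.5 and 219.9 FPKM at D-2, and it was called lower without NPC replicate 3 (-1.34, adjusted p = 0.0280, limma-voom). *Tap2*, a subunit of the peptide transporter, was at 92.4, 100.1 and 112 FPKM in NPC and at 63.8, 75.8 and 66.4 FPKM at D-2. *H2-Ab1*, a class II chain, was at 2613, 3187 and 2878 FPKM in NPC and at 2801, 2474 and 2896 FPKM at D-2, with full overlap. Interferon-stimulated genes counted 1 above and 2 below of 30, with a median of -0.08.

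Cholesterol synthesis and other targets of SREBP2 had the largest share of members below the controls after the FOXN1 targets. Of 23 tested, 10 lay below (43.5%) and 0 above, with a median of -0.74. *Hmgcs1*, which makes the precursor of mevalonate, was at 21.8, 20.3 and 24.2 FPKM in NPC and at 7.66, 10.4 and 8.57 FPKM at D-2 (adjusted p = 0.0908, limma-voom). *Sc5d*, a late enzyme of the pathway, was at 49.4, 65.6 and 61.7 FPKM in NPC and at 27.8, 37.1 and 32.2 FPKM at D-2. Without NPC replicate 3, 14 of 23 lay below, where 12.4% of all genes tested did. Lipid handling was mixed, with 3 above and 3 below of 22, and beside *Fabp5*, *Scd2*, *Apoe* and *Angptl4* it held *Fasn*, fatty acid synthase, at 56.8, 85.5 and 63.8 FPKM in NPC and at 38.6, 30.6 and 24.5 FPKM at D-2. *Fasn* was called lower without NPC replicate 3 (-1.25, adjusted p = 0.0228, limma-voom).

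Cell division genes were low in both groups. Of 25 genes of mitosis and G2/M, 5 lay below and 0 above, with a median of -1.13. *Top2a*, topoisomerase of dividing cells, was at 9.55, 4.07 and 8.27 FPKM in NPC and at 2.59, 3.56 and 1.76 FPKM at D-2. *Bub1*, a spindle checkpoint kinase, was at 1.73, 2.2 and 0.49 FPKM in NPC and listed at 0 in all 3 D-2 samples. DNA replication genes counted 2 above and 5 below of 25, with a median of -0.29.

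Acute-phase genes and targets of STAT3 had the largest share above the controls with all 6 samples. Of 19 tested, 7 lay above (36.8%) and 1 below, with a median of 0.59. *Lcn2*, the iron-scavenging lipocalin, was at 11.4, 2.00 and 25.5 FPKM in NPC and at 67.3, 47.3 and 60.4 FPKM at D-2. *Il6ra*, a receptor chain for IL-6, was at 6.30, 6.01 and 7.26 FPKM in NPC and at 10.4, 10.7 and 12.3 FPKM at D-2. *C3*, the central complement component, was at 599, 346 and 500.2 FPKM in NPC and at 620.2, 695 and 802 FPKM at D-2. The single gene below was *Fgg*, a fibrinogen chain, at most 5.84 FPKM in any sample.

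Secreted growth factors and cytokines counted 6 above and 3 below of 38, with a median of 0.43. That median was 0.09 without NPC replicate 2 and 0.11 from ratios of mean TPM. Their summed level was 1776 to 2232 FPKM in NPC and 3061 to 4700 FPKM at D-2. *Igfbp5*, a binding protein for insulin-like growth factors, made up most of it at D-2, and was at 909, 527 and 685 FPKM in NPC and at 3166, 1649 and 2128 FPKM at D-2 (adjusted p = 0.0809, limma-voom). *Vegfd*, a lymphatic growth factor, was at 5.50, 5.65 and 4.46 FPKM in NPC and at 14.3, 14.8 and 15.6 FPKM at D-2. *Fst*, the activin antagonist follistatin, was at 25.9, 19.9 and 24.7 FPKM in NPC and at 33.2, 42.6 and 42.1 FPKM at D-2. *Il7*, the survival cytokine of early thymocytes, lay the other way, at 98.0, 122 and 87.1 FPKM in NPC and at 53.9, 53.5 and 83.0 FPKM at D-2.

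Keratins and cell junction genes counted 6 above and 1 below of 29, with a median of 0.25. The gene below was *Krt8*. Beside *Cldn1*, the members above were *Cgn* (cingulin, 9.97, 11.3 and 17.7 FPKM in NPC and 24.7, 24.1 and 22.9 at D-2, called higher without NPC replicate 3 with an adjusted p of 0.0443 in limma-voom), *Cldn3*, *Krt23*, *Krt80* and *Dsg2*. Cytosolic ribosomal proteins counted 20 above and 1 below of 81, with a median of 0.25. These were small shifts spread over many abundant genes, none with an adjusted p under 0.354 (limma-voom).

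Steroid hormone genes were looked at because of the role of progesterone. *Pgr*, the progesterone receptor, was at 7.18, 3.5 and 9.94 FPKM in NPC and at 10.6, 12.6 and 18.2 FPKM at D-2, and it was the 1 of 10 receptors above (adjusted p = 0.358, limma-voom). Of 16 steroid-induced genes, 3 lay above and 0 below, with a median of 0.27. They were *Pdk4*, a kinase that turns off pyruvate dehydrogenase (8.44, 17.8 and 13.9 FPKM in NPC and 62.6, 31.2 and 26.4 at D-2), *Zbtb16*, and *Fkbp5*, a chaperone of steroid receptors (38.1, 28.2 and 33.2 FPKM in NPC and 78.7, 38.9 and 54.7 at D-2). *Tsc22d3*, another glucocorticoid target, overlapped between groups (log2 difference -0.44).

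Notch genes counted 2 above and 3 below of 19, with a median of 0.09 that was -0.09 without NPC replicate 2 and 0.25 without NPC replicate 3. *Notch1*, the receptor, was at 18.8, 10.1 and 18.9 FPKM in NPC and at 47.2, 31.4 and 44.5 FPKM at D-2, and *Hes1*, a target of Notch, was at 57.9, 77.5 and 37.3 FPKM in NPC and at 118.5, 87.9 and 127 FPKM at D-2. Both thus lay on the opposite side from the Notch ligand *Dll4*. Chemokines counted 0 above and 5 below of 23, yet their median was 0.34. That median was -0.34 without NPC replicate 2 and -0.15 from ratios of mean TPM. *Cxcl12*, a homing chemokine, was at 571, 614 and 707 FPKM in NPC and at 407, 284 and 382 FPKM at D-2. *Cd274*, the checkpoint ligand PD-L1, was at 105.5, 163 and 211 FPKM in NPC and at 77.3, 83.7 and 59.5 FPKM at D-2, and it was 1 of 2 below among 13 negative regulators of T cell proliferation (0 above, median -0.35).

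*Tnc*, the matrix glycoprotein tenascin C, was at 303, 351 and 343 FPKM in NPC and at 167, 191 and 134 FPKM at D-2 (adjusted p = 0.106, and 0.0443 without NPC replicate 3, limma-voom), while the extracellular matrix list as a whole counted 5 above and 5 below of 35, with a median of -0.03. The respiratory chain and ATP synthase counted 2 above and 9 below of 81, with a median of -0.10. WNT readouts counted 0 above and 2 below of 9 (median -0.57), BMP and TGF-beta readouts 2 above and 2 below of 16 (median -0.18), and p53 targets 1 above and 2 below of 16 (median 0.08). Amine and arginine metabolism counted 0 above and 1 below of 21 (median -0.24). STAT5 targets counted 0 in either direction of 11 (median -0.08), the unfolded protein response 1 above and 0 below of 21 (median -0.11), and immediate-early and heat-shock genes 0 in either direction of 23 (median 0.05). Without NPC replicate 3, 12 of those 23 immediate-early and heat-shock genes lay above, where 13.8% of all genes tested did.

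**Figure D3:**
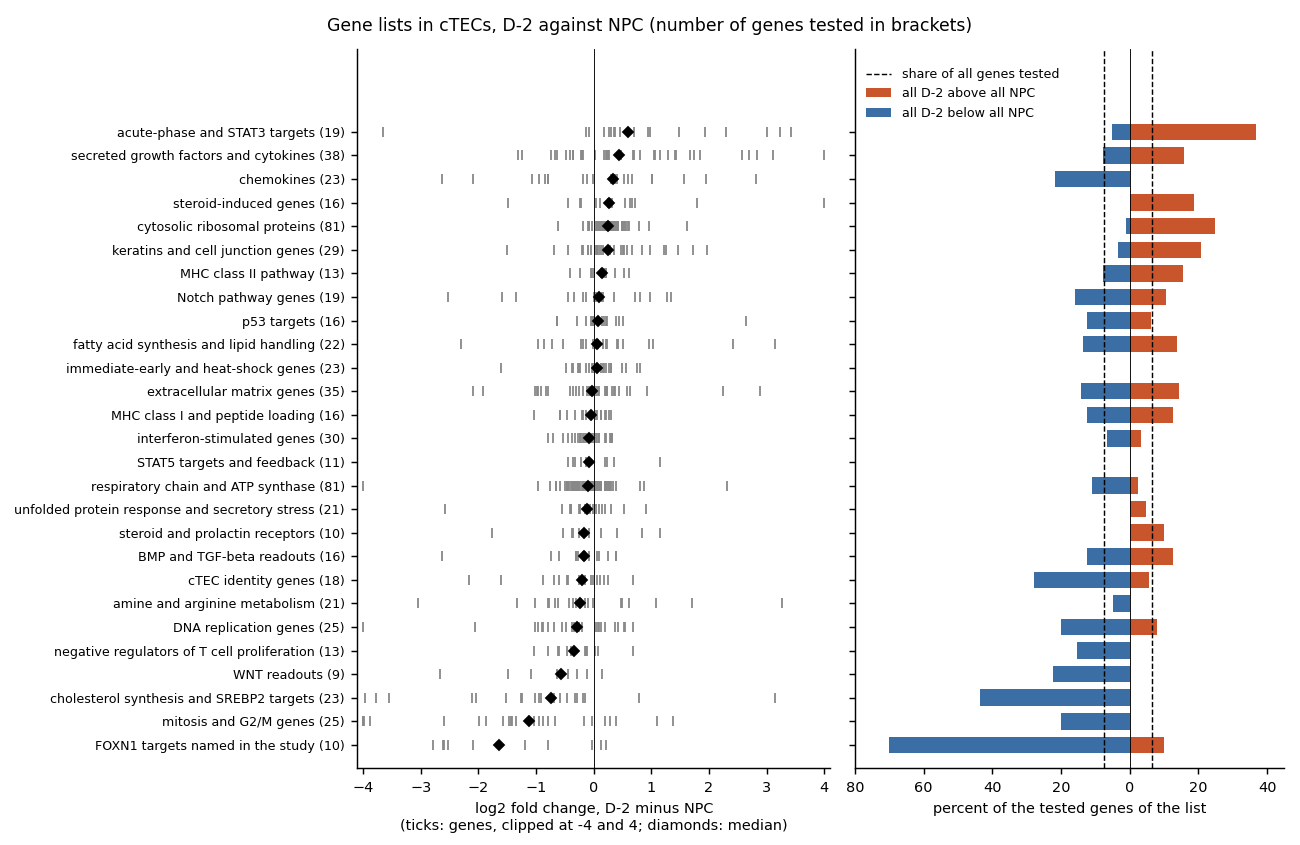
Pathway lists ordered by their median log2 fold change of D-2 over NPC, with ticks for genes and diamonds for medians (left), and the percentage of tested genes with all D-2 samples above (orange) or below (blue) every NPC sample (right). Dashed lines mark the shares over all genes tested, 6.54% above and 7.56% below, and the FOXN1 targets and the cholesterol list extend farthest to the left.

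Leaving out NPC replicate 3 raises both shares over all genes, to 13.8% above and 12.4% below, since 2 controls overlap less often than 3. Without it 8 of 18 cTEC identity genes, 9 of 25 genes of mitosis and 19 of 81 of the respiratory chain lay below. In the other direction 30 of 81 ribosomal proteins, 7 of 16 steroid-induced genes, 11 of 38 secreted factors and 9 of 29 keratin and junction genes lay above. MHC class I counted 4 above and 5 below of 16, class II 5 above and 1 below of 13, chemokines 5 above and 5 below of 23, and WNT readouts 0 above and 5 below of 9. The FOXN1 targets (7 below and 1 above of 10) and the acute-phase genes (7 above and 1 below of 19) kept their counts. Leaving out a control cannot lower such a count, so an unchanged count does not show stability. The acute-phase share above (36.8%) was then below that of other lists, such as the steroid-induced (43.8%) and class II genes (38.5%). Without NPC replicate 2 in place of NPC replicate 3, the shares over all genes tested were 10.8% above and 12.3% below. Then 44 of 81 ribosomal proteins and 10 of 19 acute-phase genes lay above, and 7 of 10 FOXN1 targets, 11 of 23 cholesterol genes and 6 of 16 BMP and TGF-beta readouts lay below.

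Transcripts of other cells were present and some moved with the groups. Thymocyte genes summed to 248, 119.8 and 47.5 FPKM in NPC and to 38.5, 40.3 and 43.4 FPKM at D-2. Of 20 tested, 4 lay below and 0 above. Without NPC replicate 3, 12 of 20 lay below, and without NPC replicate 2, 5 of 20 did. The shares below over all genes tested were 7.56%, 12.4% and 12.3% in turn. *Rag1*, which cuts antigen receptor genes in thymocytes, was at most 8.51 FPKM in NPC and 1.36 FPKM at D-2. Of the mitosis, DNA replication and WNT lists, some members are also expressed in thymocytes, and the part of thymocyte RNA in them was not tested. Fibroblast genes counted 0 above and 3 below of 9, with sums of 448 to 566 FPKM in NPC and 319 to 414 FPKM at D-2, most of it *Dcn*. Its part in *Tnc* and in the matrix genes was not tested.

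Genes of mTECs summed to 4444 to 6286 FPKM in NPC and to 5934 to 8206 FPKM at D-2, which overlap. Of 17 tested, 2 lay above and 1 below. Without NPC replicate 3, 8 lay above and 1 below, and without NPC replicate 2, 2 lay above and 1 below. The shares above over all genes tested were 6.54%, 13.8% and 10.8% in turn. Of these 17 genes, 14 had a positive log2 difference, with a median of 0.525. The part of mTEC RNA in the genes higher at D-2 was not tested. *Aire*, which marks mature mTECs, was at 1.15 to 16.5 FPKM in NPC and 4.66 to 14.1 FPKM at D-2. Genes of macrophages and dendritic cells summed to 29.6 to 71.8 FPKM in NPC and 37.3 to 78.8 FPKM at D-2 (0 above and 1 below of 12). B cell genes (0 in either direction of 3), endothelial genes (1 above and 0 below of 5) and erythroid genes (0 in either direction of 2) also overlapped in their sums.

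Only a description of the promoters was possible, since 11080 of the genes tested matched a RefSeq promoter, and *Prss16* and *Fabp5* were not among them. The FOXN1 core GACGC was found on either strand in 37.4% of these 11080 promoters and in 22.6% of all 27025 promoters. Of the 20 genes lower at an adjusted p of at most 0.1, 12 had a promoter and 3 of these held the core, and of the 20 higher genes 13 had a promoter and 1 held it. AGAACA was found in 10.7% of the promoters of genes tested, in 3 of the 12 and in 4 of the 13. Those 4 were *Apoe*, *Ephx1*, *Gpx3* and *Serpina3n*. TTCNNNGAA, a STAT site, was found in 5.91% of the promoters of genes tested and in 0 of the 12 and 0 of the 13. GAAANNGAA, a motif like the interferon response element, was found in 6.16%, in 0 of the 12 and in 1 of the 13 (*Apoe*). A match does not show that a factor binds.

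The named genes were followed through the other cTEC time points, which run from the day of delivery (D0) to D28. Pups were removed at birth, so these levels are not those of nursing mice. Most of these time points had 1 sample. Since D-2 and NPC values chose these genes, the D-2 level is a description. Of the 15 genes lower at D-2, 14 had their lowest mean of all 16 time points at D-2, the exception being *Abat*. Of the 14 higher genes, 12 had their highest mean at D-2, the exceptions being *Ppl* and *Zfp750*. *Ppl* was an exception through 1 sample at D1 (22.32 FPKM, against a mean of 22.29 FPKM at D-2). At D0 the mean lay between D-2 and NPC for all 15 lower genes and for 13 of the 14 higher ones, with *Zfp750* outside. The choice of genes without overlap favours a mean between these groups, and the share over all genes tested was not counted.

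*Prss16* was at 511 ± 117 FPKM at D0 (n = 3), at 1830 ± 572 at D3 and at 2845 ± 251 at D6. *Fabp5* was at 371 FPKM at D0 and 1836 FPKM at D6 on average. *Serpina3n* was at 70.1 ± 32.4 FPKM at D0, where its 3 samples ran from 50.1 to 107.4, and at 7.8 FPKM on average at D6. *Angptl4* was at 15.2 ± 15.3 FPKM at D0, where its samples ran from 5.1 to 32.8 FPKM and so met the NPC samples. *Gpx3* was at 626 ± 117 FPKM at D0, with samples from 507 to 740.5 FPKM that all lay above its highest NPC sample.

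**Figure D4:**
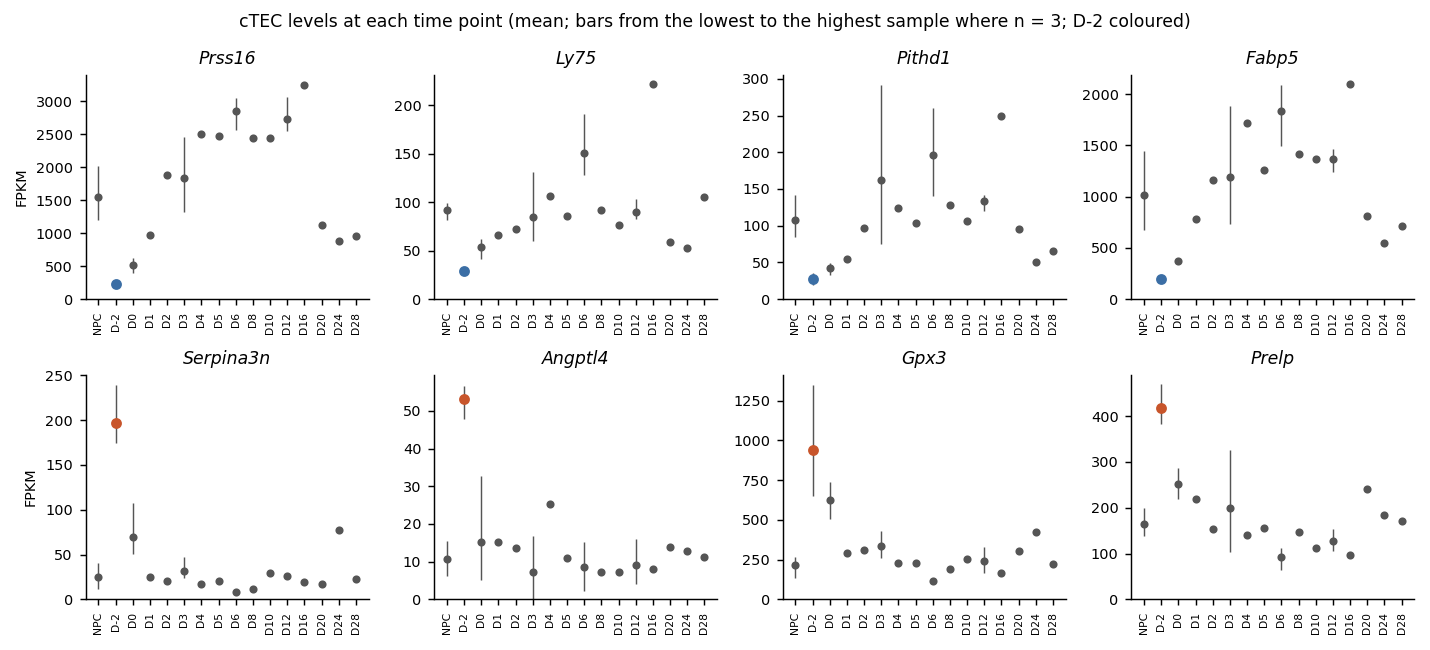
Mean FPKM in cTECs at NPC, D-2 and each later time point (D0 to D28), with bars from the lowest to the highest of 3 samples where there were 3, for the 4 called genes (top) and 4 genes higher at D-2 (bottom). The D-2 point (coloured) is the lowest in the top row, where *Prss16* was at 221 FPKM, and the highest in the bottom row, where *Serpina3n* was at 197 FPKM.

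The same genes were looked at in mTECs, sorted as the UEA1+ fraction at the same time points (3 D-2 and 3 NPC samples), where the values had no part in their choice. By the numbers in the sample titles, most of these mTEC samples were taken to come from the same mice as the cTEC samples. Agreement between the cell types is therefore not agreement between separate mice. Of the 14 genes higher in cTECs, 13 had a positive log2 difference in mTECs, and in 6 all D-2 samples lay above NPC, as they did for 6.28% of the 17743 genes tested in mTECs. Of the 15 lower genes, 14 had a negative difference, and in 8 all D-2 samples lay below NPC, against 8.16% of the genes tested in mTECs. These signs are those of the limma-voom estimates, and the share of all genes with such a sign was not counted. *Apoe* counted as higher (log2 difference 0.26), although its mean was 1648 FPKM in NPC mTECs and 1643 FPKM at D-2. mTEC NPC replicate 3 was the lowest control for *Apoe*, *Gpx3*, *Prelp* and *Igfbp4*. That library had 25031 genes with a count, against 16306 and 15680 in the other NPC mTEC samples. The signs without it were not counted. The median differences were 1.37 in cTECs and 0.67 in mTECs for the higher genes, and -1.87 and -0.50 for the lower ones. Since the genes were chosen for their size in cTECs, a smaller median in mTECs is not evidence that the response is particular to cTECs.

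*Angptl4* was at 7.38, 5.99 and 8.05 FPKM in NPC mTECs and at 28.02, 21.6 and 32.9 FPKM at D-2, close to its difference in cTECs (log2 difference 2.19, adjusted p = 0.0551, limma-voom). *Serpina3n* was at 47.9, 40.3 and 21.7 FPKM in NPC mTECs and at 114.5, 89.6 and 159.5 FPKM at D-2 (1.77, adjusted p = 0.0730). *Prss16* was at 140.1, 173.9 and 138 FPKM in NPC mTECs and at 81.5, 32.3 and 67.6 FPKM at D-2 (-1.23, adjusted p = 0.170). *Ly75* overlapped in mTECs, at 13.7, 6.17 and 19.7 FPKM in NPC and at 9.86, 7.73 and 10.98 FPKM at D-2.

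The test of the difference itself, an interaction of cell type and time point on 12 samples, called 0 of 18394 genes (0%), with 1352 at an unadjusted p under 0.05 in limma-voom and 0 calls in edgeR. *Dll4* had one of the smallest p values (interaction -2.23, SE 0.49, adjusted p = 0.611). Without mTEC NPC replicate 3 the same test called 110 genes. No gene is therefore called particular to cTECs here.

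**Figure D5:**
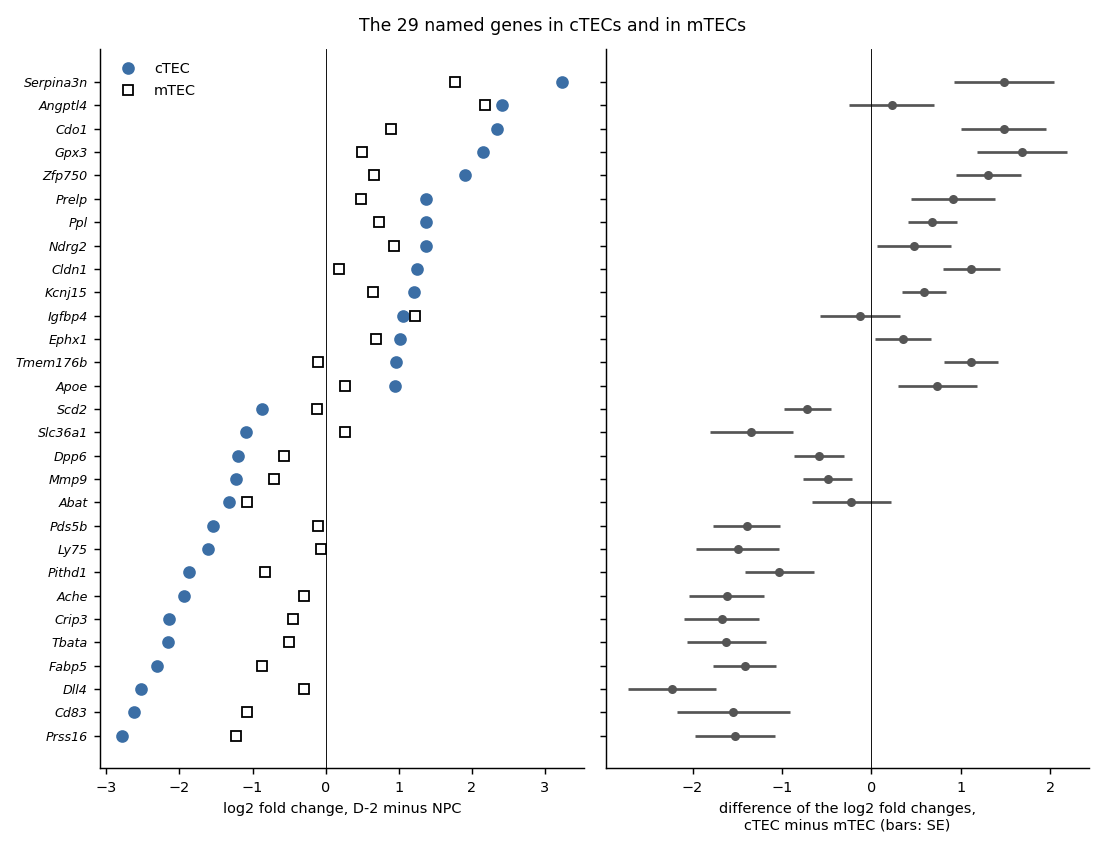
Log2 fold change of D-2 over NPC for the 29 named genes in cTECs (circles) and mTECs (squares), left, and the difference between them with its SE from the interaction fit, right. By the limma-voom estimates nearly all genes keep their side of 0 in mTECs, the exceptions being *Tmem176b* and *Slc36a1*. The mean level of *Slc36a1* in mTECs was nonetheless lower at D-2 (5.72 FPKM, against 8.15 FPKM in NPC). No interaction passed an adjusted p of 0.05.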

How the data were processed

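Poly-A RNA of cTECs sorted from 3 D-2 and 3 NPC mice was compared, with the 6 matching mTEC samples for the interaction and all 28 cTEC samples for the expression filter. Per the labels, the authors used bcl2fastq 2.20, Trimmomatic 0.35, STAR 2.5.1b and RSEM 1.2.28 on GRCm38. The annotation release is not given in the sources used here. For each sample they deposited an expected count per gene (not normalized), TPM values and FPKM values from RSEM. RSEM shares reads between similar genes, so values of near-identical copies are uncertain. Symbols and coordinates came from GENCODE M21, which matched 50376 of 50600 identifiers without version.

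Expected counts were rounded and tested in R 4.3.3 with limma 3.58.1 (voom) after TMM scaling in edgeR 4.0.16. Genes whose FPKM averaged 0.5 or more in cTEC samples entered the test, and those with an adjusted p (Benjamini-Hochberg) up to 0.05 were called. The study's thresholds (2-fold, adjusted p up to 0.01), which it set for D-2 against D6, were also applied. For NPC against D-2 the study gave unpaired t tests of single genes. The depth of 6718253 to 12974714 counts per sample limits low genes. Named genes were to be the 15 largest changes in each direction among calls with at least 5 FPKM in the higher group and no overlap. With 4 calls, the smallest p values filled each direction, and 1 gene so named is not reported here. All members, gene lists and tests were chosen with earlier results of these data known. The interaction was fitted on 12 samples. Alternatives were edgeR's quasi-likelihood test, DESeq2 1.42.0, limma-trend on log2 FPKM with a pseudocount of 0.5 or 0.1, sample quality weights, other scalings and filters, all 28 samples, a replicate block, and each sample left out. The main tests were tested on simulated data. Figures used matplotlib 3.10.9.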

Additional observations from a re-analysis of the deposited data

How the results depend on the processing

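limma-voom called 4 genes, edgeR's quasi-likelihood test 13, DESeq2 226, sample quality weights 16, no FPKM filter 110, a filter over the 6 samples compared 37, and the fit to all 28 cTEC samples 56, with 3 of the 4 among them. limma-trend on log2 FPKM gave 0 with either pseudocount, 0.5 or 0.1, with 1328 and 1258 genes at an unadjusted p under 0.05. An adjusted p of at most 0.1, added after the data were seen, gave 40. Leaving out 1 sample gave 0 to 68 calls, the highest without NPC replicate 3 and 1 without NPC replicate 1. At the study's thresholds, set for D-2 against D6 and not for this comparison, limma-voom called 0 genes and DESeq2 87. The fit without a filter gave 46, the filter over the 6 samples 5 and the fit to 28 samples 15. The cause of these differences was not tested. The 4 genes kept their direction in every alternative run, and each lost its call in both limma-trend fits and without any 1 sample but NPC replicate 3. *Fabp5* also lost it with DESeq2 size factors (adjusted p = 0.0543) and *Pithd1* in the fit to 28 samples (adjusted p = 0.0804). None of the 29 named genes, the 4 included, changed sign. All were chosen for having no overlap between the groups, so a kept sign is not separate evidence of stability. The interaction gave 0 calls except without mTEC NPC replicate 3 (leaving out 1 sample gave 0 to 110). The numbers in the sample titles were shared by 2 pairs of NPC and D-2 samples, which are different mice, and their deviations correlated at -0.064 and 0.01, so they did not pair the samples. The fit with that replicate number as a block gave 78 calls, the 4 genes among them, and 23 at the study's thresholds. It rests on those 2 pairs, since NPC replicate 3 and D-2 replicate 2 share their number with no sample. With the mouse as a block, the interaction gave 0 calls. Of 280 list medians under alternatives, 34 moved by more than the spread and 10 of these changed sign.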

Other observations

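Some alternative fits called further genes, chosen for mention after their values were seen, and none of them passed an adjusted p of 0.05 in the 6-sample fit. *Flna*, which encodes the actin crosslinker filamin A, was at 281, 394 and 462 FPKM in NPC and at 168, 222 and 140.2 FPKM at D-2, and fell in the limma-voom fit to all 28 cTEC samples (log2 difference -0.84, adjusted p = 0.0181). *Tagln* (transgelin, log2 difference -1.32, adjusted p = 0.0446) and *Actg1* (gamma actin, -0.62, adjusted p = 0.0354) also fell in that fit. *Tagln* is a gene of smooth muscle and myofibroblasts too. *Acta2*, a member of the fibroblast and mesenchymal list, was at 52.4 to 155 FPKM in NPC and 26.9 to 39.9 FPKM at D-2. The part of such cells in these genes was not tested. *Notch1* (1.36, adjusted p = 0.0143) and *App*, the amyloid precursor protein (0.92, adjusted p = 0.0158), rose in that fit.

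Without NPC replicate 3, limma-voom called *Cstb*, the cathepsin inhibitor cystatin B, lower (-1.38, adjusted p = 0.0234) and *Bnip3l*, a mitophagy receptor, lower (-1.51, adjusted p = 0.0177). It called *Gsn*, which encodes the actin-severing protein gelsolin, higher (1.44, adjusted p = 0.0236) and *Glul*, glutamine synthetase, higher (1.23, adjusted p = 0.0280). *Krt18*, the keratin partner of *Krt8*, was called lower without that sample (-0.89, adjusted p = 0.0177), whereas with it the groups overlapped, at 4199, 4114 and 1819 FPKM in NPC and at 2388, 2056 and 2340.0 FPKM at D-2.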
